A study of Mus musculus with 8 samples.

Results

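The Slc25 family encodes the mitochondrial carriers, and 46 of its genes were measured among the 19938 genes with a name of their own in microglia lacking multifunctional protein-2 (MFP2). Members were chosen by symbol: 50 probe sets carried a single annotated symbol beginning with Slc25a, and each gene was represented by its probe set with the highest mean over all 8 arrays. Microglia, the resident macrophages of the brain, were sorted as CD11b-high cells with intermediate CD45 from the brains of Swiss Webster mice, all labelled female, at 17 weeks of age. The control group was 4 wild-type samples and the other group 4 MFP2 knockout samples, with 1 array each and no treatment given in the labels. The allele is not described in the sources used here, and nothing says whether replicates were separate animals. The p-values therefore describe only how much these 8 samples vary, which may be technical variation. MFP2 is encoded by Hsd17b4 and works in the peroxisome, where it helps to break down fatty acids too long or too branched for mitochondria.

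Carriers of this family cross the inner mitochondrial membrane, which is otherwise closed to most charged metabolites. Most exchange one small molecule for another: ADP for ATP, malate for phosphate, citrate for malate, aspartate for glutamate. They thereby connect the respiratory chain and the citric acid cycle with the cytosol, and a few members work elsewhere, such as Slc25a17 in the peroxisome and Slc25a46 on the outer mitochondrial membrane. Carrier proteins are made in the cytosol and inserted through the TOM and TIM22 complexes with small TIM chaperones between the membranes.

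The deposited values were log2 expression values processed with RMA, and array medians lay between 6.03 and 6.15. Hsd17b4 was at 7.82 to 9.09 in controls and at 4.76, 7.20, 5.21 and 5.20 in knockout 1 to knockout 4. Control 1 did not match its female label, with Xist at 6.80 and the Y-linked Eif2s3y at 8.14, against at least 10.55 and at most 2.99 in the other 7 arrays. Control 3 and knockout 2 stood apart in earlier results of these data, so results are also given without these arrays. Of 7 measured microglial identity genes, 5 were lower in knockouts, against 4.17% of all genes and 6.98% of those with a mean log2 value of at least 6. Their summed level was log2 14.74 to 14.93 in controls and 14.35 to 14.50 in knockouts, below every control. Tmem119 was at 12.49 in controls and 11.83 in knockouts. In sorted bulk samples, fewer cells of a type and less RNA per cell cannot be told apart.

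A minority of the carriers changed. Of the 46 genes, 5 were higher in knockout microglia, 2 were lower and 39 did not pass an adjusted p of 0.05 (limma, Benjamini-Hochberg over all 19938 genes). The higher members were Slc25a3, Slc25a4 and Slc25a5, which supply phosphate and exchange ADP for ATP, and Slc25a1 and Slc25a10, which carry citrate and dicarboxylates. The lower members were Slc25a37, the iron importer mitoferrin-1, and Slc25a45. Across all genes 5.38% were higher and 4.17% lower, against 10.9% and 4.35% of the carriers, and 9.55% were called in either direction against 15.2% of the carriers. The 7 called carriers all had a mean of at least 6 on the log2 scale, where 15.9% of all genes and 7 of 34 carriers were called, so the shares are not read as a property of the family. Control and knockout arrays were fully apart for 9 carriers (19.6%), against 14.0% of all genes. With a mean of at least 6 they were apart for 8 of 34 carriers and 2394 of 10900 genes. The median log2 change of the 46 was -0.04, beside -0.02 over all genes, with 22 changes above and 24 below 0.

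**Figure D1:**
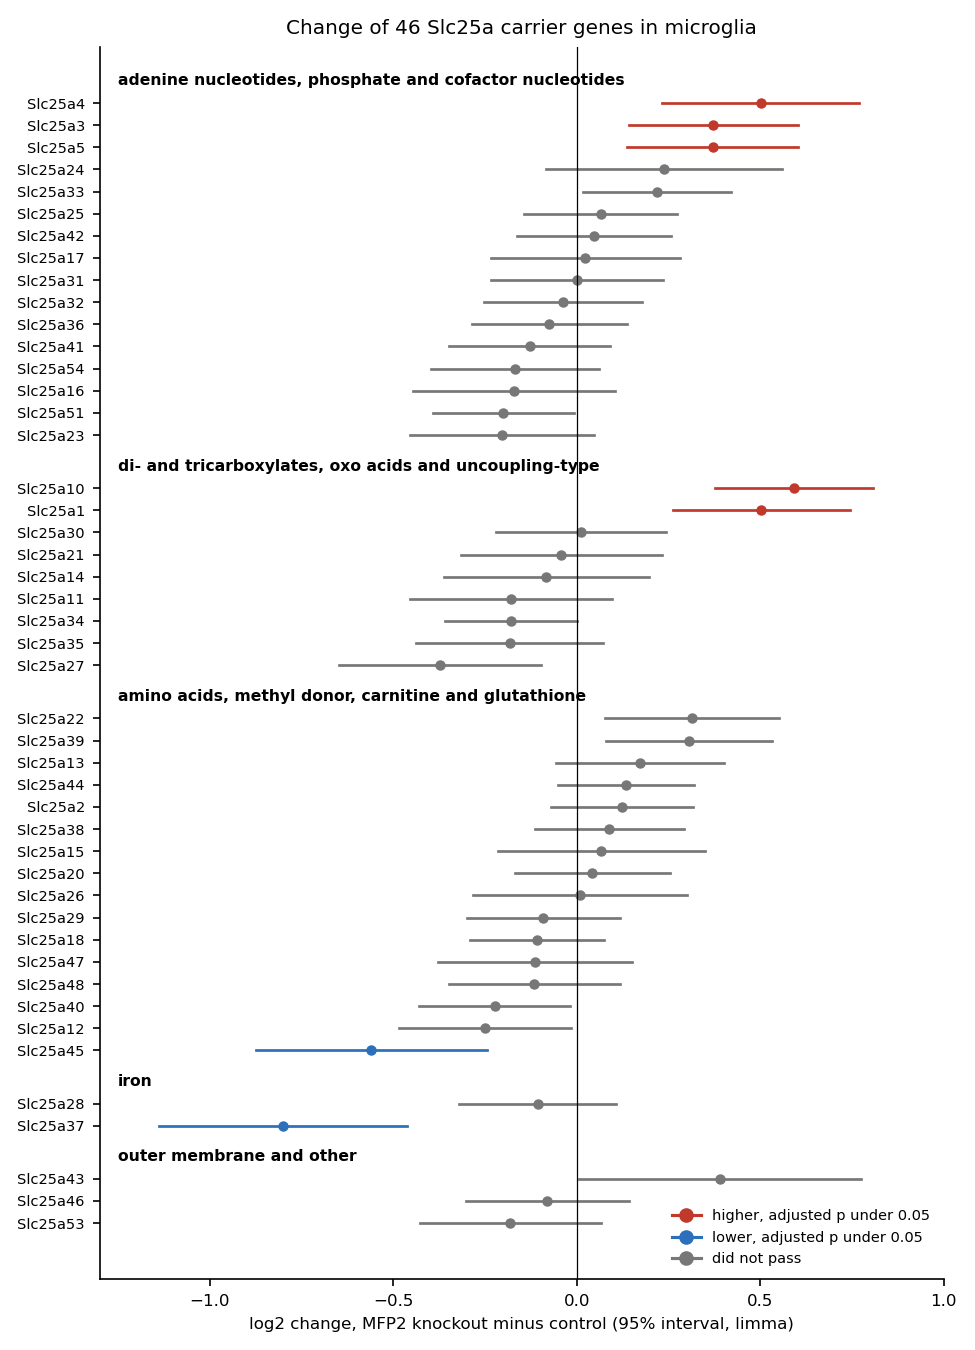
Log2 change (knockout minus control, x axis) of each of the 46 carrier genes with its 95% interval from limma, grouped by transported substance. The 5 higher members lie between 0.37 and 0.59, the 2 lower ones at -0.56 and -0.80, and the other 39 stay within 0.40 of 0.

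The ADP/ATP carriers Slc25a4 and Slc25a5 and the phosphate carrier Slc25a3 all rose by small amounts. Slc25a4 (adenine nucleotide translocase 1) was at 8.97, 9.08, 8.89 and 8.85 in control 1 to control 4 and at 9.33, 9.14, 9.62 and 9.70 in knockout 1 to knockout 4. Knockout 2 was the lowest knockout array, and still above every control. The log2 change was 0.50 ± 0.12 (SE), or 1.42-fold, with a limma adjusted p of 0.0228 (n = 4 and 4). Slc25a5 (translocase 2) was at 9.75, 9.77, 9.74 and 9.95 in controls and at 10.01, 10.02, 10.26 and 10.41 in knockouts. The groups were separated by less than the range within either, and the change was 0.37 ± 0.11 (SE; limma adjusted p = 0.0494). Slc25a3, the phosphate carrier that supplies ATP synthase, was at 9.52, 9.52, 9.33 and 9.09 in controls and at 9.69, 9.72, 9.70 and 9.83 in knockouts. Its knockout arrays lay close to each other (SD 0.06) while the control arrays spread (SD 0.20), and its change was 0.37 ± 0.11 (SE; limma adjusted p = 0.0451).

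Each of these 3 calls was lost when any 1 of several arrays was left out. Slc25a3 missed the threshold without control 3, control 4 or any 1 knockout array (adjusted p = 0.0662 to 0.119), and Slc25a5 without any 1 control array, knockout 3 or knockout 4 (0.0535 to 0.136). Slc25a4 missed it without control 1, control 3, control 4, knockout 3 or knockout 4 (0.0539 to 0.0779). Slc25a3 and Slc25a5 also missed it under quantile scaling, median centring and cyclic loess (0.0520 to 0.155), and Slc25a5 with array weights (0.0521). Without control 3 and knockout 2 the adjusted p was 0.138 for Slc25a3 and 0.0846 for Slc25a5, and with control 1 left out besides it was 0.155, 0.246 and, for Slc25a4, 0.0572. The log2 changes of the 3 genes stayed above 0 under all 19 alternative settings, from 0.24 to 0.60. Slc25a5 had 2 other probe sets, with changes of 0.38 ± 0.11 and 0.46 ± 0.11 (SE), both in the same direction as the one used; the former missed the threshold over all probe sets (adjusted p = 0.0551) and the latter passed (0.0221). The gene lies on the X chromosome and the reference lists a pseudogene, Slc25a5-ps, so its probe sets may share signal with near-identical copies. Without control 1, the array that did not match its sex label, the change of Slc25a5 was 0.35.

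**Figure D2:**
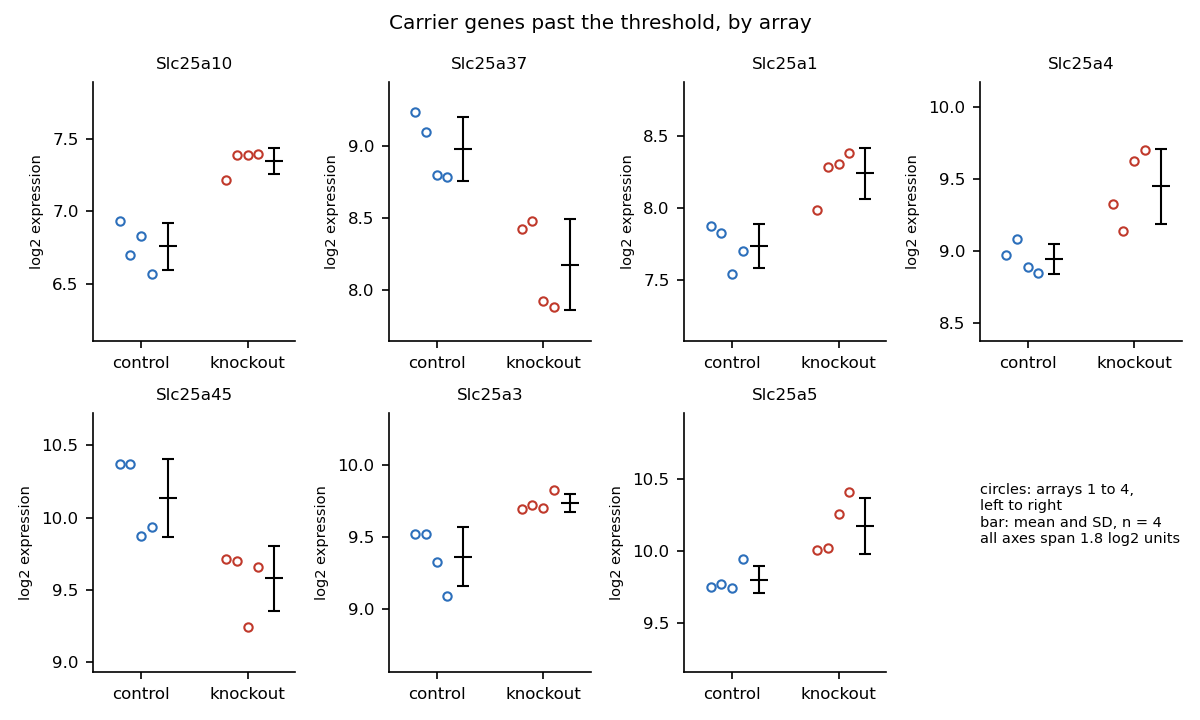
Log2 expression (y axis) in each array for the 7 carriers past the threshold. Circles are arrays 1 to 4 from left to right in each group and bars show the mean and SD (n = 4), on axes that all span 1.8 log2 units. In each panel the control and knockout circles do not overlap, and the gap is narrowest for Slc25a5 and Slc25a4.

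The promoters of these 3 genes are shown because the genes were all called higher in knockouts and all serve ATP synthesis. RefSeq windows of 300 bases (250 before and 50 from the annotated start on, build GRCm38.p6) were searched for 6 motifs. Capitals mark the matches.
Slc25a3, chr10:91123918-91124217, minus strand: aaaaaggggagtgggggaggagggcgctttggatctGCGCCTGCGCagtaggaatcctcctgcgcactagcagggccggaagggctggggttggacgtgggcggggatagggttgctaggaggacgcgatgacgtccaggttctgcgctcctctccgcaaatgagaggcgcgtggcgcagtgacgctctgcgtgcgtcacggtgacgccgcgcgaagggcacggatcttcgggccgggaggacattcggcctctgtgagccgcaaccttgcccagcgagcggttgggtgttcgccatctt
Slc25a4, chr8:46211013-46211312, minus strand: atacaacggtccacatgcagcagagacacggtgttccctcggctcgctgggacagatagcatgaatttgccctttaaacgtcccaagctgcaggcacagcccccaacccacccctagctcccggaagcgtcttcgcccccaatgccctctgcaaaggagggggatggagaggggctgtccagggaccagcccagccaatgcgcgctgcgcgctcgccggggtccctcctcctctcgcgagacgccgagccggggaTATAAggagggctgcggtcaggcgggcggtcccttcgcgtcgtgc
Slc25a5, chrX:36795347-36795646, plus strand: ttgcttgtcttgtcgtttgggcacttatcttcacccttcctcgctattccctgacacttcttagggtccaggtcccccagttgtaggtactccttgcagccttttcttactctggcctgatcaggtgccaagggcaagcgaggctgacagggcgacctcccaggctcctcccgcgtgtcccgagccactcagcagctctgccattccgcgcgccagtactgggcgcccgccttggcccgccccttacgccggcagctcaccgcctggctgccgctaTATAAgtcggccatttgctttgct
The Slc25a3 window holds GCGCCTGCGC at bases 37 to 46, a match to the motif of the mitochondrial gene regulator NRF1 (GCGC and TGCGC with any 1 base between, either strand), which 4.60% of all 32851 windows hold. The Slc25a4 and Slc25a5 windows hold TATAA on the gene's strand, at bases 256 to 260 and 277 to 281, as do 17.5% of all windows. Both matches lie after the annotated start, in the last 50 bases of the window. The Slc25a4 and Slc25a5 windows lack the NRF1 letters, and no window of the 3 holds those of the ERR (TNAAGGTCA), ETS (CCGGAAGT), E-box (CACGTG) or SREBP (TCACNCCAC) motifs. These are matches of letters in the reference, with no measurement of binding.

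The other 13 carriers of nucleotides and cofactors did not pass the test. Slc25a33, a pyrimidine nucleotide carrier, was at 5.58 ± 0.14 (SD, n = 4) in controls and 5.80 ± 0.08 in knockouts, and Slc25a51, which imports NAD, at 8.00 ± 0.08 and 7.80 ± 0.11 (limma adjusted p = 0.197 and 0.216). Slc25a17, the family member that carries CoA and related cofactors into the peroxisome, was at 7.77 ± 0.14 in controls and 7.79 ± 0.22 in knockouts. Its change was 0.02, with a 95% interval of -0.23 to 0.28 on the log2 scale. The CoA carriers Slc25a16 and Slc25a42, the folate carrier Slc25a32, the ATP-Mg/phosphate carriers Slc25a23, Slc25a24, Slc25a25 and Slc25a41, the pyrimidine nucleotide carrier Slc25a36 and Slc25a31 and Slc25a54 had changes between -0.20 and 0.24. A second probe set of Slc25a36 gave 0.10 against -0.08 for the one used, neither past the threshold.

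The citrate and dicarboxylate carriers were higher in knockouts. Slc25a10, which exchanges malate or succinate for phosphate, was at 6.94, 6.70, 6.83 and 6.57 in controls and at 7.22, 7.39, 7.39 and 7.40 in knockouts. Knockout 2 to knockout 4 were nearly equal and knockout 1 was lower, but all lay above control 1, the highest control. The change of 0.59 ± 0.10 (SE), or 1.51-fold, had the lowest p of the family (limma adjusted p = 0.00260) and passed under all 19 alternative settings, with values from 0.53 to 0.71. Slc25a1, which exports citrate for cytosolic fatty acid and sterol synthesis, was at 7.87, 7.83, 7.54 and 7.70 in controls and at 7.98, 8.28, 8.30 and 8.38 in knockouts. Knockout 1 exceeded control 1 by little, and the other knockout arrays by more. Its change was 0.50 ± 0.11 (SE; limma adjusted p = 0.0124), and the call was lost without control 3 and knockout 2 (0.42, adjusted p = 0.0689) and with control 1 left out besides (0.46, adjusted p = 0.129). Acly, which splits exported citrate in the cytosol, was at 8.54 in controls and 8.56 in knockouts (adjusted p = 0.947).

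The other 7 members of this group did not pass. Slc25a27 (uncoupling protein 4) was at 5.90, 6.25, 6.25 and 6.17 in controls and at 5.63, 5.96, 5.50 and 5.98 in knockouts, with a change of -0.37 ± 0.13 (SE; limma adjusted p = 0.0941). Control 1 lay among the knockout arrays, so the groups overlapped. Slc25a11, the oxoglutarate/malate carrier of the malate-aspartate shuttle, was at 8.67 ± 0.25 (SD) in controls and 8.49 ± 0.15 in knockouts. Slc25a14, Slc25a21, Slc25a30, Slc25a34 and Slc25a35 had changes from -0.18 to 0.01.

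Among the amino acid, carnitine and glutathione carriers 1 of 16 was called, against 9.55% of all genes in either direction. Slc25a45 was at 10.37, 10.37, 9.87 and 9.94 in controls and at 9.71, 9.70, 9.24 and 9.66 in knockouts. Control 3 and control 4 were closer to the knockout arrays than control 1 and control 2 were, and knockout 3 was the lowest. It fell by 0.56 ± 0.14 on the log2 scale (SE; limma adjusted p = 0.0291). The call was lost without control 1 (adjusted p = 0.0912), control 2 (0.0966) or knockout 3 (0.0865) with median centring (0.0512), and without control 1, control 3 and knockout 2 (0.0962). Slc25a39, which imports glutathione, was at 8.11, 8.23, 8.12 and 8.19 in controls and at 8.26, 8.34, 8.64 and 8.64 in knockouts. The groups did not overlap, but knockout 1 and knockout 2 lay near the controls, and the change of 0.31 ± 0.10 (SE) missed the threshold (limma adjusted p = 0.0943). It passed without knockout 1 (0.37, adjusted p = 0.0432) and after cyclic loess (0.33, adjusted p = 0.0442).

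Members that serve fatty acid oxidation and the malate-aspartate shuttle did not pass. Slc25a20, which brings acylcarnitines in for mitochondrial beta-oxidation, was at 6.11 ± 0.12 (SD, n = 4) in controls and 6.16 ± 0.13 in knockouts, a change of 0.04 with a 95% interval of -0.17 to 0.25. Slc25a12, an aspartate/glutamate carrier, was at 7.86 ± 0.18 and 7.61 ± 0.13, and its relative Slc25a13 at 5.84 ± 0.10 and 6.02 ± 0.18 (limma adjusted p = 0.205 and 0.398). Slc25a22, a glutamate carrier, was at 6.18 ± 0.19 in controls and 6.49 ± 0.12 in knockouts (limma adjusted p = 0.102) and passed without control 3 (0.40, adjusted p = 0.0284). Slc25a40, the second glutathione carrier, had a change of -0.22 and a dimmer probe set at 0.19, neither past the threshold. The ornithine carriers Slc25a2 and Slc25a15, the glycine carrier Slc25a38, the branched-chain amino acid carrier Slc25a44, the S-adenosylmethionine carrier Slc25a26, the basic amino acid carrier Slc25a29, the glutamate carrier Slc25a18 and Slc25a47 and Slc25a48 had changes from -0.12 to 0.13.

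**Figure D3:**
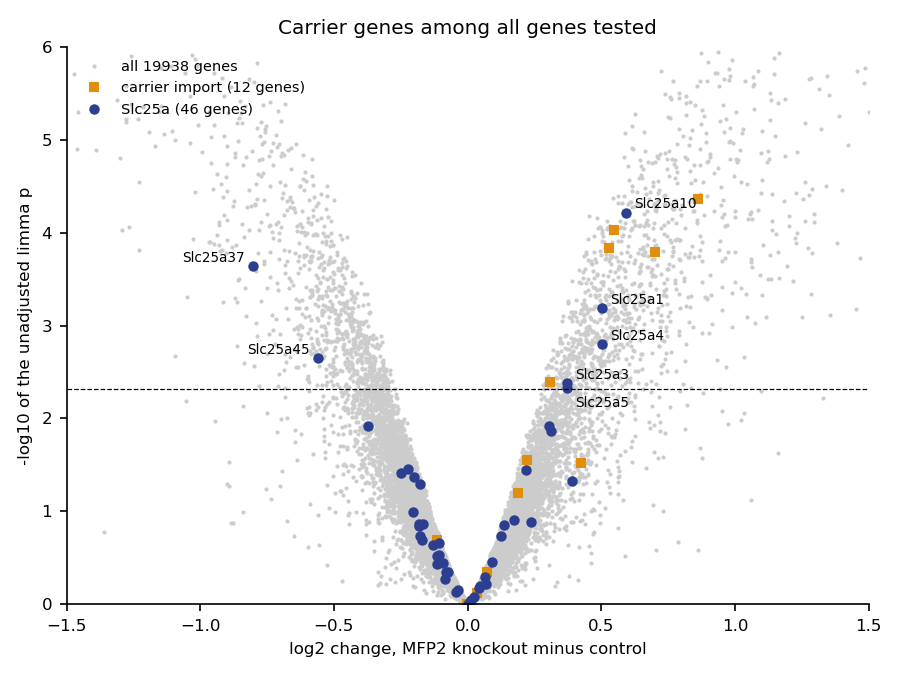
Log2 change (x axis) against -log10 of the unadjusted limma p (y axis) for all 19938 genes in grey, the 46 carriers in blue and 12 genes of carrier import in orange; the dashed line is the p at which the adjusted p reaches 0.05, and 122 genes lie outside the axes. The called carriers lie among many other called genes, and Slc25a3 and Slc25a5 sit at the line.

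Of the mitoferrins, which import iron for heme and iron-sulphur cluster synthesis, mitoferrin-1 fell. Slc25a37 was at 9.24, 9.10, 8.80 and 8.79 in controls and at 8.42, 8.48, 7.93 and 7.89 in knockouts. Knockout 3 and knockout 4 were lowest, and knockout 2, the highest knockout array, was below every control. The change of -0.80 ± 0.16 (SE), or 1.74-fold lower (limma adjusted p = 0.00597), was the family's largest in size and passed under all 19 alternative settings. Slc25a28 (mitoferrin-2) was at 8.22 ± 0.08 (SD) in controls and 8.11 ± 0.16 in knockouts, with a 95% interval of the change from -0.32 to 0.11. Slc25a37 is abundant in erythroid cells. The erythroid genes Alas2 and Slc4a1, 2 of 5 listed that were measured, were at 6.10 and 5.83 in controls and 6.14 and 5.74 in knockouts. The 5 neutrophil markers (S100a8, S100a9, Ly6g, Ngp and Camp) had a summed level between 11.37 and 14.09 in controls and between 12.65 and 13.48 in knockouts, and 0 of 5 passed the limma test, with 0 also at an unadjusted p of 0.05. Control 1, with the lowest of these sums, had the highest Slc25a37. Among knockouts there was no clear order. Knockout 2 had the highest sum (13.48) and the highest Slc25a37 (8.48). Knockout 1 had the lowest sum (12.65) with Slc25a37 at 8.42, and knockout 4 a sum of 13.01 with the lowest Slc25a37 (7.89). A link between neutrophil content and Slc25a37 was not tested.

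The 3 remaining members, Slc25a43, Slc25a46 and Slc25a53, gave 0 calls by limma and 1 at an unadjusted p of 0.05. Slc25a43 was at 6.23, 6.25, 6.26 and 5.92 in controls and at 6.10, 6.32, 6.77 and 7.04 in knockouts. Knockout 1 lay among the controls and knockout 2 just above them, and the change was 0.39 ± 0.18 (SE; limma adjusted p = 0.228). Slc25a46, which acts in fission and fusion at the outer membrane, was at 7.73 ± 0.14 and 7.65 ± 0.14 (SD). Slc25a53 was at 4.85 ± 0.21 in controls and 4.67 ± 0.12 in knockouts.

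Whether 2 carriers for like substances changed unequally was asked with the log2 ratio of their probe sets within each array, for 8 pairs, by an exact two-sided permutation test. With 4 arrays against 4 the smallest p was 0.0286, and after adjustment over the 8 pairs a value under 0.05 needed at least 5 pairs at that p. The ratio of Slc25a28 to Slc25a37 was -0.76 ± 0.19 (SD, n = 4) in controls and -0.07 ± 0.17 in knockouts, a rise of 0.69 (exact p = 0.0286, adjusted p = 0.0457). The ratio of Slc25a10 to Slc25a11 rose by 0.77 and that of Slc25a39 to Slc25a40 by 0.53, at the same exact p. The latter holds for the Slc25a40 probe set used, which changed by -0.22. A dimmer one changed by 0.19, and the ratio was not tested with it. For the aspartate/glutamate carriers the ratio of Slc25a12 to Slc25a13 fell by 0.42, from 2.02 ± 0.16 to 1.60 ± 0.16, and for the glutamate carriers that of Slc25a18 to Slc25a22 fell by 0.42, also at that p. Of the 4 members of these latter pairs, none had passed by itself. The ratio of the translocases Slc25a4 and Slc25a5 differed by 0.13 between the groups (exact p = 0.286), that of Slc25a33 to Slc25a36 by 0.29 (0.0571) and that of Slc25a24 to Slc25a25 by 0.17 (0.171). The 5 passing pairs dropped to 0 after quantile scaling and also without control 1, control 2, control 3, control 4 or knockout 4, where 0.0286 could still be reached but fewer than 5 pairs were at it.

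**Figure D4:**
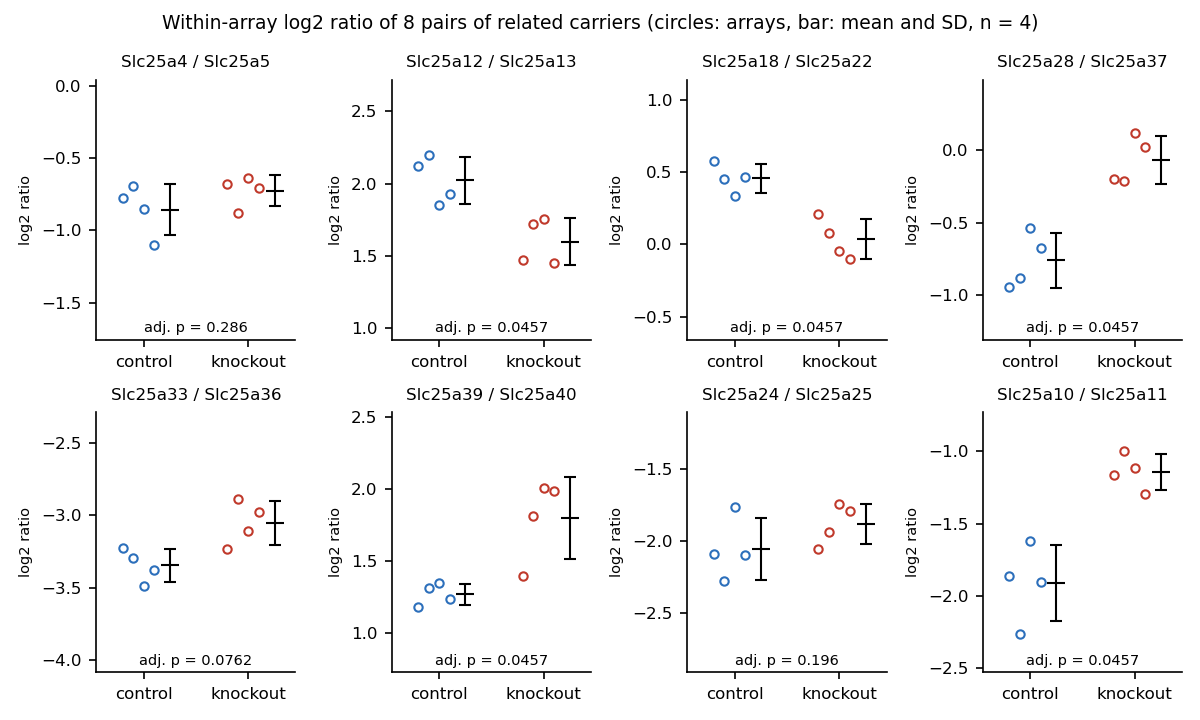
Log2 ratio (y axis) of 8 pairs of related carriers in each array, with circles for arrays and bars for the mean and SD (n = 4); the printed values are exact permutation p adjusted over the pairs. Control and knockout circles are apart for 5 pairs and overlap for the other 3, including Slc25a4 over Slc25a5.

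Some genes of the carrier import list were higher in knockouts, while Timm22 and others did not pass. Of 12 measured members, 5 were higher and 0 lower, with a median change of 0.26, against 5.38% higher and a median of -0.02 over all genes. All 12 had a mean of at least 6, where 8.94% of all genes were higher. Tomm20, an import receptor of the outer membrane, rose from 8.45 ± 0.11 (SD, n = 4) to 9.31 ± 0.31 (limma adjusted p = 0.00214). The small TIM chaperones Timm8a1, Timm8b and Timm13 rose by 0.70, 0.55 and 0.53, and the receptor Tomm22 by 0.31. The call of Tomm22 was lost without any 1 array other than control 2 and knockout 1 (adjusted p = 0.0866 to 0.127), and with all 8 arrays under median centring (0.0685) and the replicate block (0.0880). Timm22, the channel through which carriers enter the inner membrane, was at 6.81 and 7.03 (adjusted p = 0.166). Tomm40, Tomm70a, Timm9, Timm10, Timm29 and Agk did not pass either, with changes of 0.19, 0.04, 0.07, 0.43, -0.12 and -0.0014.

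Partner genes of the carriers were called at shares to be read against the 5.38% higher and 4.17% lower over all genes. Of 14 measured enzymes and channels beside the carriers 1 was higher and 0 lower: Got1, the cytosolic aspartate aminotransferase of the malate-aspartate shuttle, rose by 1.16 ± 0.10 (SE; limma adjusted p = 0.000169). Its mitochondrial counterpart Got2 was at 7.73 and 8.03 (adjusted p = 0.175). Of 10 genes of the porins and mitochondrial mass 2 were higher and 0 lower, the mitochondrial chaperone Hspa9 (0.70 ± 0.13, SE) and the coactivator Ppargc1b (0.48 ± 0.14, SE), while the porin genes Vdac1, Vdac2 and Vdac3 had changes of 0.27, 0.00 and 0.15 and did not pass. The call of Ppargc1b was lost without control 2, control 4, knockout 2, knockout 3 or knockout 4 (adjusted p = 0.0510 to 0.134). Of 5 listed family members named otherwise, 4 were measured (Ucp1, Ucp3, Mtch1 and Mtch2). These gave 0 calls by limma and 2 at an unadjusted p of 0.05, Mtch1 (0.28, adjusted p = 0.0904) and Mtch2 (0.21). Ucp1 and Ucp3 were dim, with means of 4.29 and 5.15 over all arrays.

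Markers of other cells also differed between the groups. The summed level of 4 astrocyte markers was 7.31 to 7.63 in controls and 7.74 to 8.09 in knockouts, with Gfap higher by 1.28. The other astrocyte markers did not pass (changes of 0.26 for Slc1a2, 0.27 for Aldh1l1 and -0.02 for Aqp4). The sum of 3 oligodendrocyte markers was 7.93 to 8.10 in controls and 8.24 to 8.49 in knockouts, with Mbp higher by 0.59. Mobp (0.02) and Mog (-0.24, the other direction) did not pass. The 5 border macrophage markers summed to 8.99 to 9.72 in controls and 7.99 to 8.79 in knockouts. Of these 5, 4 were lower, against 4.17% of all genes. The sums overlapped between the groups for 4 neuronal (7.35 to 7.63 and 7.54 to 7.74), 4 endothelial (8.29 to 8.84 and 8.30 to 9.04, with Flt1 higher by 1.99 and Pecam1 lower, at a change of -1.56) and 3 T cell markers (7.71 to 8.74 and 8.16 to 9.27). Values on this scale do not reach 0. The part of these cells in the carriers' changes was not tested.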

How the data were processed

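RNA of sorted microglia (5.775 ng per sample, integrity number at least 8) was amplified and hybridised to arrays, 1 per sample, per the labels' protocols. The deposited values are log2 expression per probe set, which the authors made by RMA (per the submitters' processing notes); the sources used here name no version, and base 2 was taken from the spread of values, 2.04 to 13.99. RMA scales arrays to each other, which can hide a shift common to all genes, and it compresses changes of dim genes; the array medians deposited still differed slightly. Of 28874 probe sets, 21789 had 1 symbol by the platform annotation, 1621 several and 5464 none; the latter kinds were not named. Symbols were checked against RefSeq (GRCm38.p6).

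Knockout minus control was fitted over all 19938 genes with limma 3.58.1 in R 4.3.3 (two-sided, no covariate, no filter, Benjamini-Hochberg, threshold 0.05), and the method was tested on simulated data. The number of arrays limits the precision. "Higher", "lower", "rose" and "fell" mark what passed; means carry SDs and changes SEs. The members, the lists and the alternatives were chosen with earlier results of these data known. All members are named; values per array are given for those with an adjusted p under 0.10 or, in a group with no call, the lowest p. Slc25a17 and Slc25a20 have intervals because of their role in peroxisomes and fatty acid oxidation. Listed genes without a probe set of their own are not analysed here. Samples were not treated as paired by replicate number. Deviations of same-numbered arrays correlated at 0.16, -0.06, 0.01 and 0.01, the first being the highest of any control with any knockout. These values cannot exclude that samples were handled in pairs. Alternatives included leaving out dim genes, 3 scalings, other uses of probe sets, another prior, array weights, the replicate block, arrays left out and stricter thresholds. Plots were made in Python 3.11.15 (matplotlib 3.10.9).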

Additional observations from a re-analysis of the deposited data

Results flagged for a closer look

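In 8 of 108 groups of 4 arrays tested, 1 array lay far from the other 3, and chance flags about 1 in 20 groups. In knockouts, Slc25a10 was at 7.22 in knockout 1 and at 7.39 to 7.40 in the others, and Slc25a45 was at 9.24 in knockout 3 and at 9.66 to 9.71 in the others. Knockout 2 was apart for Slc25a14, at 6.57 against 6.93 to 6.99, and for Slc25a23, at 6.88 against 6.41 to 6.49. In controls, Slc25a5 was at 9.95 in control 4 and at 9.74 to 9.77 in the others, and Slc25a40 was at 6.77 in control 3 and at 6.92 to 6.95 in the others. Control 4 was also apart for Slc25a21, at 3.82 against 3.47 to 3.52, and for Slc25a43, at 5.92 against 6.23 to 6.26.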

How the results depend on the processing

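Slc25a10 and Slc25a37 passed in the same direction under all 19 settings, and no called carrier changed sign under any of them. Of the 39 carriers not called, 2 (Slc25a22 and Slc25a39) passed under some setting. The 5 higher and 2 lower carriers became 3 and 2 after quantile scaling, 3 and 1 after median centring, and 2 and 2 without control 3 and knockout 2. With control 1 left out as well they were 1 and 1, with 649 higher and 494 lower genes over all and 5 in place of 8 context genes higher. An adjusted p under 0.01 left 1 and 1 carriers (567 and 358 of all genes), and a change of at least 1.5-fold 1 and 1 (597 and 313). Leaving out each array in turn gave 2 to 5 higher and 1 to 2 lower carriers, with 507 to 960 lower genes over all. The median change of the carriers, -0.04, was -0.014 without dim genes, -0.0085 with a gene's probe sets averaged and -0.088 to -0.015 with 1 array left out. The count of passing pairs, 5, was 0 to 5 with 1 array left out (0 without any 1 control array or knockout 4) and 0 after quantile scaling. It was also 0 without control 3 and knockout 2 and without these and control 1, where the smallest possible p is 0.1, and under the replicate block, where it is 0.125. With the replicate number as a block 4 carriers were higher and 2 lower; Slc25a3 was the one lost (adjusted p = 0.0788), and not every array correlated best with its own number. The cause of these changes was not tested, and neither was the part of the smaller number of arrays where some were left out.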

Other observations

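Over the 36 carriers with a RefSeq promoter window (46 windows, some genes having several), CACGTG was found in 8 windows, or 17.4%, against 7.15% of all 32851 windows. Its 7 genes were Slc25a1, Slc25a13, Slc25a14, Slc25a15, Slc25a31, Slc25a33 and Slc25a36, of which Slc25a1 was called higher. The NRF1 letters were in 2 windows (Slc25a3 and Slc25a31), those of the ETS motif in 1 (Slc25a20), those of the SREBP motif in 1 (Slc25a18) and those of the ERR motif in 0. TATAA was in 3 windows (Slc25a4, Slc25a5 and Slc25a21), or 6.52%, against 17.5% of all windows. These are counts of letters, given without a test.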
